A study of Vitis vinifera with 2 samples.

Results

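MicroRNA precursor genes were taken as every gene of the deposited transcript tables whose name is MIR followed by a digit, which gave 155 genes in 47 families out of 30485 genes in all. The study looked for grape genes of resistance whose expression differs after a wound is given the yeast Yarrowia lipolytica. Total RNA of wounded grape (Vitis vinifera) tissue was sequenced in 2 libraries, both taken 3 days after treatment at 20 °C. The wound received 10 µL of sterile water in 1 library (the water control) and 10 µL of a Y. lipolytica suspension in the other (the treated library). Groups were taken from the titles and the treatment protocol, since both samples carry the yeast under the strain label. The labels give no cultivar, no genotype and no number of berries behind a library. With n = 1 in each group, nothing was tested and no difference could be checked against replicates.

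Plant microRNAs are short RNAs that guide Argonaute proteins to messenger RNAs with a matching site, which are then cut or translated less. Each is cut by the nuclear enzyme Dicer-like 1 out of a longer primary transcript that folds into a hairpin. The primary transcript is made by RNA polymerase II, as messenger RNAs are, and is usually short-lived because the hairpin is cut out soon after transcription. The mature microRNA itself is too short for a standard RNA-seq library. The values below therefore describe reads over precursor transcripts, and the abundance of mature microRNAs was not measured.

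The values used are FPKM, which scales fragments to transcript length and library size, and fragment equivalents, which are aligned bases divided by 300. Both are given as control and then treated. Library depth was 19010746 fragment equivalents for the control and 20540965 for the treated sample. The precursor genes together held 525 and 387 of these. Transcript models of 3 kinds stand under the precursor names. There were 155 annotated hairpins of 76 to 442 bases (median 107), 1 for each gene. There were 176 mature models of 19 to 24 bases, and 4 assembled models without an annotated transcript name. All 155 names are listed as microRNA genes in the RefSeq table of assembly ASM3070453v1, with spans of the same length as the hairpins in the files and on the same chromosomes. Coordinates below are those of the deposited files, whose genome build the sources used here do not name.

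Most precursor genes had no reads at this depth. Of 155 genes, 111 were at 0 in both libraries, 12 had less than 1 fragment equivalent in their higher library, 24 had from 1 to 10, and 8 had 10 or more. In all, 28.4% of the precursor genes were above 0 in either library, against 77.7% of all 30485 genes. The 8 genes were MIR168, MIR3631B, MIR403C, MIR482, MIR403A, MIR3623, MIR171A and MIR3630, of 7 families. They are 5.16% of the precursor genes, against 60.6% of all 30485 genes with 10 or more. The median longest model was 107 bases for precursor genes and 1525 for all genes. Because fragment equivalents count aligned bases, a short model needs more fragments than a long one to reach 10. Transfer RNA genes, which are shorter than the hairpins, reached it in 3 of 97 cases. Of these 97, however, 81 were above 0, a larger share than among precursor genes. The 8 genes held 87.2% and 82.4% of all precursor fragment equivalents. A count of 0 allows up to 3 fragments, for counting error only. A precursor at 0 was therefore not detectable at this depth, and is not shown to be absent. Reads were seen for 36 genes in both libraries, with 4 more above 0 in the control alone and 4 more in the treated library alone.

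The large families were mostly at 0. MIR169, whose microRNAs are known to target NF-YA transcription factors, has 25 genes, of which MIR169X and MIR169C had reads. The 18 MIR169 genes on chromosome 11, which lie within 366 kb, were all at 0. MIR395, known for targets in sulfate uptake and assimilation, has 14 genes, and all were at 0, among them 13 within 84.6 kb of chromosome 1. Of 9 MIR156 genes, whose microRNAs target SPL transcription factors, MIR156B alone was above 0, at 0 and 0.0733 fragment equivalents. Of 9 MIR399 genes, whose microRNAs target the phosphate regulator PHO2, MIR399C alone was above 0, at 0.897 and 0.267. In all, 15 families had no gene above 0, among them MIR396, MIR845, MIR390, MIR408 and MIR828. In 24 families at least 1 gene reached 1 fragment equivalent.

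**Figure D1:**
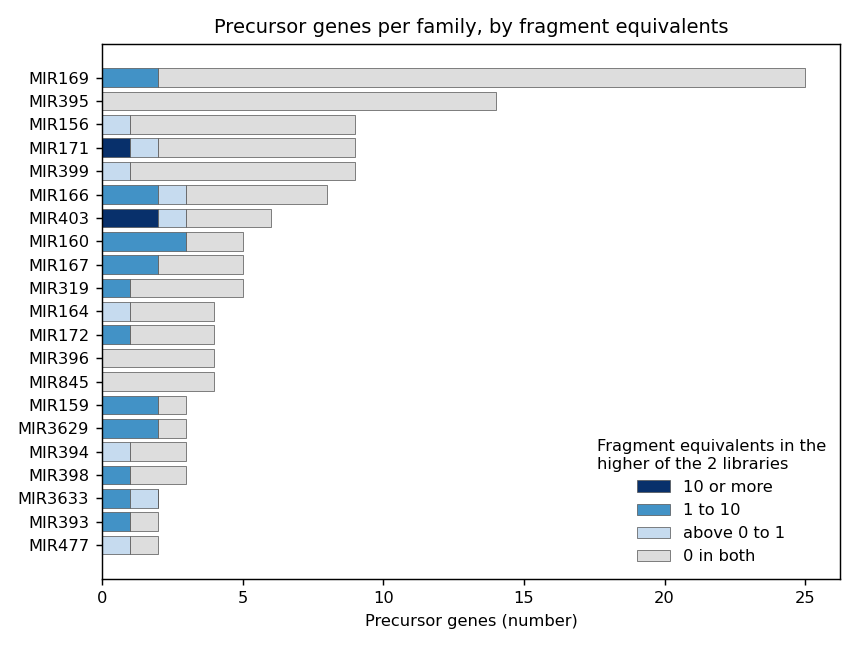
Horizontal bars show the number of precursor genes in each family of 2 or more genes, shaded by the fragment equivalents of the gene in its higher library. The MIR169 bar is longest with 25 genes, of which 2 have reads, the 14 MIR395 genes are all at 0, and families with 10 or more fragment equivalents appear only as 1 MIR171 and 2 MIR403 genes here.

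Reads counted under a precursor name were not always reads over the hairpin. Hairpin models held 51.3% and 47.9% of the precursor fragment equivalents, and assembled models 48.2% and 51.5%. Mature models held 0.431% and 0.551%. Taken by the annotated hairpin alone, 5 genes had 10 or more fragment equivalents: MIR168, MIR482, MIR171A, MIR3623 and MIR3630. The other 3 genes, MIR3631B, MIR403C and MIR403A, rest on a longer assembled model whose span includes the hairpin. Their hairpin models held at most 0.413 fragment equivalents in either library. How the fragments of 1 locus were divided among its models is described in none of the sources used here.

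**Figure D2:**
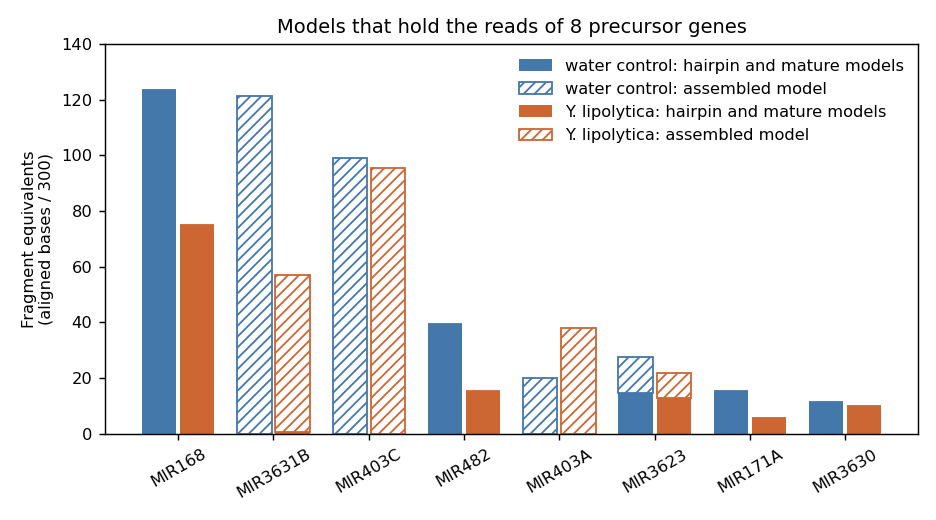
Bars show fragment equivalents (aligned bases divided by 300) of the 8 genes in the water control (blue) and the treated library (orange), with filled parts for hairpin and mature models and hatched parts for assembled models. The bars of MIR3631B, MIR403C and MIR403A are almost wholly hatched, those of MIR168, MIR482, MIR171A and MIR3630 are filled, and MIR3623 is split.

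Of the 8 genes, MIR482 and MIR171A were at least 2-fold lower in the treated library and none was at least 2-fold higher, on the scale log2((treated FPKM + 1)/(control FPKM + 1)). MIR171A and MIR3630 passed the limit of 10 through the control alone. For such genes, fewer fragment equivalents in the treated library follow from the limit itself. Among the 18467 genes of the tables with 10 or more fragment equivalents, 3.09% were at least 2-fold lower and 5.35% at least 2-fold higher. On this scale a gene under 1 FPKM in the control cannot be at least 2-fold lower. Likewise, one under 1 FPKM in the treated library cannot be at least 2-fold higher. At 10 fragment equivalents a long model has a lower FPKM than a short one, so the added 1 draws its ratio nearer to 0. The 8 and the 18467 are therefore not compared on wholly equal terms. The median log2 ratio of the 8 was -0.45, beside -0.25 for those 18467 genes, and the 8 ranged from -1.32 to 0.48. Of these 8, 7 lay below 0 and MIR403A above it, while 73.0% of the 18467 genes lay below 0. With 8 genes these counts say little about precursor genes as a class.

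MIR168 had the highest FPKM of them in both libraries. Its microRNA is known to target the messenger RNA of AGO1, the main Argonaute protein for microRNAs. Its hairpin (chromosome 2, 17944801 to 17944932, minus strand, 132 bases) overlaps no other gene model of the tables. The gene MIR168 stood at 47.7 and 27.0 FPKM, from 124 (95% Poisson interval 103 to 148) and 75.1 (59.0 to 94.0) fragment equivalents. The treated level was 0.567 times the control (95% counting interval 0.420 to 0.762). This interval lies below 1 and below 0.794, the median ratio of the 18467 genes, and the log2 ratio of -0.80 is within 2-fold. Of the 16040 genes that reached 1 FPKM in either library, 83.8% lay below MIR168 in the control and 75.2% in the treated sample. These ranks are by FPKM. By fragment equivalents MIR403C, with 95.5, stood above MIR168 in the treated library. The deposited gene table lists MIR168 at 2.82 and 1.60, below MIR403C at 3.94 and 3.54. Mean depth over the hairpin was 281 and 170 reads. A read can give a hairpin no more bases than the hairpin has, so at least that many reads touched it, and a fragment equivalent of 300 bases understates the number of fragments for hairpins.

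MIR482, whose microRNA family targets messenger RNAs of NBS-LRR resistance proteins in tomato and other plants, was lower. Its hairpin (chromosome 17, 5523024 to 5523140, plus strand, 117 bases) had a mean depth of 101 and 39.2 reads. MIR482 stood at 17.3 and 6.35 FPKM, from 39.5 and 15.4 fragment equivalents. The treated level was 0.367 times the control (0.188 to 0.679), with a log2 ratio of -1.32, and -1.03 after rescaling the treated library to a median ratio of 0 over all measured genes. With a pseudocount of 5 FPKM the log2 ratio was -0.97, just within 2-fold.

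MIR482 lies in a row with the 2 genes of the MIR3633 family, all on the plus strand within 1574 bases. MIR3633B comes first, MIR3633A follows after 228 bases, and MIR482 after a further 962 bases. MIR3633A stood at 1.42 and 1.5 FPKM, from 3.84 and 4.33 fragment equivalents. MIR3633B had 0.0533 and 0.747 fragment equivalents. The counting interval of MIR3633A, 0.196 to 5.66 times the control, includes the ratio of MIR482, so whether the neighbours differ from it could not be seen at this depth. The next gene downstream on the same strand, LOC100241693, begins 2350 bases after MIR482 and is listed as a transcribed pseudogene. Its values were 43.4 and 24.7 FPKM, a ratio of 0.570 (0.536 to 0.607). LOC100246811, on the opposite strand 6091 bases away, stood at 229 and 301 FPKM.

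MIR171A, of the family whose microRNAs target GRAS transcription factors of the HAIRY MERISTEM group, had the lowest plain ratio of the 8. Its hairpin (chromosome 14, 25491201 to 25491299, minus strand) is 99 bases long. MIR171A stood at 8.01 and 2.84 FPKM, from 15.4 and 5.75 fragment equivalents. The treated level was 0.355 times the control, with a wide interval of 0.113 to 0.968 that includes the median ratio of all genes. Mean depth over the hairpin was 46.5 and 17.3 reads. Fragment equivalents understate the fragments here too, so the interval is not that of the reads themselves. Its log2 ratio of -1.23 became -0.98 after the rescaling, within 2-fold. Of the other 8 MIR171 genes, MIR171I had 0 and 0.297 fragment equivalents and 7 were at 0 in both libraries.

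MIR3623 and MIR3630 were both within 2-fold. MIR3623 (chromosome 18, 24650012 to 24650140, plus strand) had 7.80 and 6.12 FPKM, a ratio of 0.784 (0.426 to 1.43). Its hairpin held 14.4 and 12.6 fragment equivalents and an assembled model of 353 bases, which starts 429 bases past the hairpin and has no strand, a further 12.9 and 8.96. MIR3630 (chromosome 17, 6897444 to 6897545, plus strand) had 5.93 and 4.82 FPKM, a ratio of 0.813 (0.309 to 2.11). Both intervals include 1 and the median ratio of all genes.

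**Figure D3:**
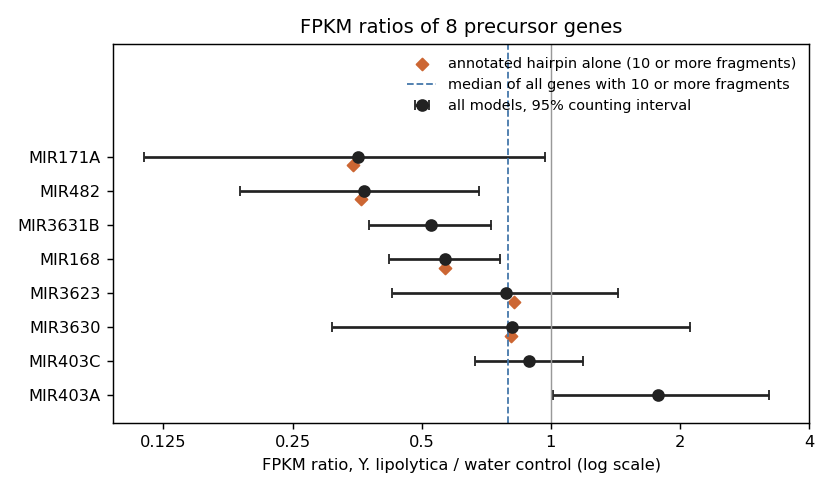
Points give the FPKM ratio of the treated library to the control for the 8 genes on a log axis, with bars for 95% counting intervals, diamonds for the annotated hairpin alone and a dashed line for the median of all genes with 10 or more fragment equivalents, 0.794. The intervals of MIR482, MIR168 and MIR3631B lie wholly below that line, that of MIR403A lies above it, and the other 4 cross it.

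The 3 genes that rest on assembled models showed different ratios. MIR3631B (hairpin on chromosome 5, 6430141 to 6430304, plus strand) has an assembled model of 2 exons and 2743 bases over a span of 3751. The hairpin lies 3430 bases from the start of that span, and whether it lies in an exon is not given. The assembled model stood at 2.25 and 0.979 FPKM, from 121 and 56.7 fragment equivalents. Under the gene name as a whole the values were 2.42 and 1.27 FPKM, 0.525 times the control (0.376 to 0.725). The assembled model alone stood at 0.436 times the control. Its mature models made up 7.27% and 13.7% of the summed FPKM, so the choice of models moves MIR3631B across 2-fold on the scale of plain ratios. The deposited gene table gives a ratio of 0.439 for MIR3631B.

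MIR403 microRNAs are known to target AGO2, an Argonaute protein of antiviral defence, in Arabidopsis. MIR403C (hairpin on chromosome 5, 602611 to 602725, plus strand) heads an assembled model of 6 exons that spans 7831 bases. MIR403C stood at 3.94 and 3.5 FPKM, from 99.1 and 95.5 fragment equivalents, 0.890 times the control (0.665 to 1.19). MIR403A (hairpin on chromosome 5, 65247 to 65361, plus strand) heads another model of 6 exons that spans 17742 bases. MIR403A stood at 1.04 and 1.84 FPKM, from 19.9 and 38.2 fragment equivalents, 1.78 times the control (1.01 to 3.22). None of the other 7 was higher in the treated library. The assembled model of MIR403C overlaps LOC109122694 on the opposite strand, which had 1.0 and 4.0 fragment equivalents. MIR403B, MIR403D and MIR403E were at 0 in both libraries. They are members of 1 family, and how fragments were divided between members of a family is uncertain where their sequences are alike.

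**Figure D4:**
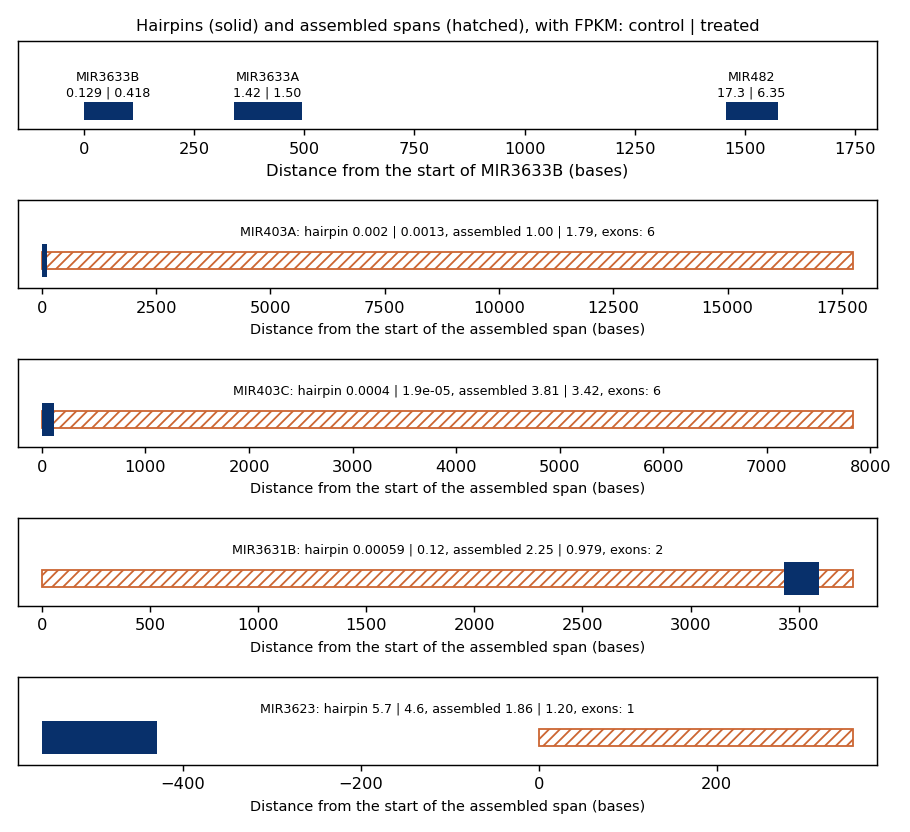
Each row is drawn to its own scale in bases, with hairpins as solid blocks, assembled spans as hatched blocks and FPKM written as control and then treated. The top row shows MIR3633B, MIR3633A and MIR482 within 1574 bases, and the rows below show that the hairpins of MIR403A and MIR403C lie at the start of their assembled spans, that of MIR3631B near the end, and that of MIR3623 outside.

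The 24 genes with 1 to 10 fragment equivalents went both ways, 12 with more in the treated library and 12 with fewer, and their totals were 63.8 and 64.4. Their median log2 ratio was -0.04. Of the 18467 genes with 10 or more fragment equivalents, 73.0% lay below 0. No share over all genes with 1 to 10 was taken, so whether the even split is particular to precursor genes was not tested. MIR319E, of the family that targets TCP transcription factors, was past 2-fold on the lower side, at 4.23 and 0.883 fragment equivalents. MIR398A, of the family that targets copper-zinc superoxide dismutases, was past 2-fold on the higher side. These 2 genes were singled out after their values were seen.

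MIR398A (chromosome 1) stood at 0.598 and 2.76 FPKM, from 0.460 and 5.77 fragment equivalents. In fragment equivalents the control value rounds to 0, which allows up to 3.69, and the Poisson interval of the treated value, 2.20 to 13.1, begins below that. Mean depth was 0.777 and 16.6 reads over the hairpin, and 2.75 and 0.872 over the mature model. Fragment equivalents therefore understate the fragments here as well, and the intervals are not those of the reads themselves. The mature model of 21 bases made up 78.0% of its FPKM in the control and 4.98% after treatment. The other 2 MIR398 genes were at 0. SODCP, which has the synonym CSD2, the name of a copper-zinc superoxide dismutase that miR398 targets in Arabidopsis, had 46.2 and 34.4 FPKM, a ratio of 0.745 (0.669 to 0.829). That interval includes 0.794, the median ratio of all genes with 10 or more fragment equivalents. A link between SODCP and MIR398A was not tested.

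Among the other 22 genes, MIR160 and MIR167 each held genes with more and genes with fewer fragments in the treated library. The MIR160 family, which targets auxin response factors, held 5.07 and 6.17 fragment equivalents over 3 genes with reads. Of these MIR160C had 3.31 and 3.86, MIR160D 0 and 1.89, and MIR160E 1.75 and 0.423. The MIR167 family, which targets further auxin response factors, had reads for MIR167A, at 5.44 and 2.35, and for MIR167E, at 2.53 and 3.44. The counting intervals of the ratios of MIR160C, MIR167A and MIR167E include 1, and MIR160D and MIR160E have too few fragments for an interval. MIR393A, whose microRNA targets auxin receptors, had 1.91 and 2.38. In the MIR166 family, which targets HD-ZIP III transcription factors, MIR166C had 3.35 and 1.33 and MIR166E 2.5 and 0.0858, while MIR166H, with 0.753 and 0.540, stayed under 1. MIR159A and MIR159C, of the family that targets GAMYB-like factors, had 0.943 and 3.67, and 2.59 and 1.21. MIR162, whose microRNA targets the messenger RNA of Dicer-like 1 itself, had 3.73 and 3.28. The single-gene families MIR3637 and MIR3634 came nearest to the limit of 10, with 7.84 and 6.47, and 7.0 and 5.11. The lowest gene above the limit was MIR3630, with 11.4 and 9.88.

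**Figure D5:**
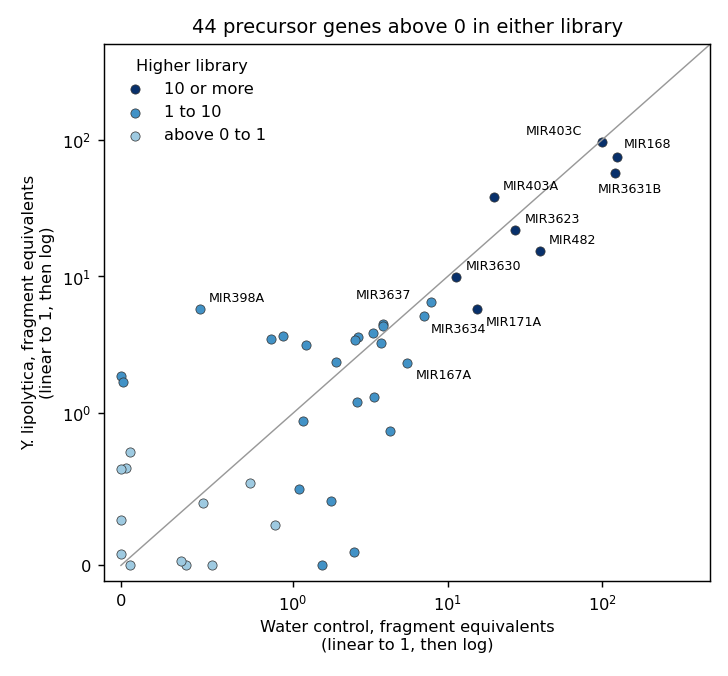
Each point is 1 of the 44 precursor genes above 0 in either library, with fragment equivalents in the water control on the horizontal axis and in the treated library on the vertical axis, both linear up to 1 and logarithmic beyond, and a line of equal values. MIR403A and MIR398A lie above the line among the labelled genes, MIR482, MIR171A, MIR168 and MIR3631B below it, and genes under 1 scatter along both axes.

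Mature models gave no measure of the microRNAs. Of 176, 48 were above 0 in each library, and their highest mean depth was 2.75 and 1.23 reads. The mature model of MIR168 stood at 0.147 and 0.137 FPKM, inside a hairpin at 47.5 and 26.9 FPKM. Because these models are so short, a few aligned bases still add to the summed FPKM, as for MIR3631B above. For MIR3637 they made up 10.8% and 13.1% of the summed FPKM.

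The hairpins of 18 precursor genes lay wholly inside the span of another gene model, 12 on the same strand and 6 on the opposite strand. The tables give no exon positions, so exonic and intronic overlaps could not be told apart. None of the 8 genes with 10 or more fragment equivalents was among them. Of these 18, 12 were at 0 in both libraries, 2 had less than 1 fragment equivalent and 4 had 1 to 10. The same-strand overlaps fell on 11 genes, 8 of them listed as protein-coding and 2 as long non-coding RNA. All 8 of these genes with 10 or more fragment equivalents were within 2-fold and had plain ratios from 0.586 to 0.972. Among all 18467 genes with as many, 3.09% were at least 2-fold lower and 5.35% at least 2-fold higher. Of those 18467, 73.0% lay below a log2 ratio of 0, and the median ratio was 0.794. With 8 genes these values say little about overlapped genes as a class.

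Several of these genes had many reads while the hairpin inside them had few or none. MIR3638, at 0.0267 and 0.640 fragment equivalents, lies inside LOC100248505, which stood at 46.4 and 45.2 FPKM. MIR3640 was at 0 in both libraries, inside LOC100246705 at 19.3 and 11.8 FPKM. MIR3639 was also at 0, inside LOC100253089 at 10.2 and 7.85 FPKM. MIR3629A had 1.1 and 0.5 fragment equivalents inside LOC100252340, at 12.2 and 7.70 FPKM. At these 4 loci the deposited values stand almost wholly under the name of the longer gene.

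MIR3629B shares its locus with LOC100249429, a gene with up to 16 exons at 23.7 and 20.6 FPKM. By its own models MIR3629B stood at 0.682 and 0.543 FPKM. The deposited gene table instead lists MIR3629B at 15.5 and 13.6. No source used here describes how that table was made, and these values were not used as a level of the precursor. MIR162 lies inside LOC104882331, a gene at 1.29 and 0.816 FPKM with a ratio of 0.634 (0.333 to 1.18), while MIR162 stood at 1.94 and 1.6 FPKM. MIR403F, at 0 and 0.633 fragment equivalents, lies inside LOC104879798, at 1.98 and 1.16 FPKM. The strand of the reads is not stated, so reads of a hairpin and of a gene on the other strand cannot be told apart.

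Genes that make or obey microRNAs could hardly be followed by name. Of 15 lists of such genes, covering processing enzymes, Argonaute proteins and the known target families, 13 had no symbol or synonym in the files, and 2 had 1 gene each. These were SODCP, described above, and AP2, which carries the name of the factors that miR172 targets. AP2 had 140 and 127 FPKM, a ratio of 0.911 (0.878 to 0.944). Neither was past 2-fold. Of the 4 MIR172 genes MIR172C alone was above 0, at 1.55 and 0 fragment equivalents.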

How the data were processed

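Values come from 2 deposited transcript tables, 1 per library, of wounded grape tissue. Per the submitters' processing notes the tools were HISAT2 (no version) and HTSeq 0.6.1. Their roles, the build, the annotation and the library strand are not given in the sources used here. Per the file headers, the authors gave FPKM and mean depth over its bases (coverage, not scaled to library size) for each transcript model. Names beginning with MSTRG were read as assembled models. A deposited gene table of the whole series, treated as a score, was used only for ratios and, where said, for the values it lists.

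FPKM was summed per gene name. Coverage times length, divided by 300, gave fragment equivalents. This size was read from the tables: of 608 and 593 single-exon models over 300 bases long with 100 to 1000 aligned bases, 50.7% and 54.1% lay within 1 base of a multiple of 150. Intervals of a ratio are exact binomial (95%), taken on fragment equivalents rounded to whole numbers and scaled to the FPKM ratio. All intervals cover counting error only. The interval code was tested on simulated whole counts of genes with many fragments, and not at the low, fractional values of most precursor genes. Members with 10 or more fragment equivalents, genes overlapping them by at least 1 base, and listed pathway genes with an FPKM of at least 1 were named by rule; other genes were named after their values were seen. Members and lists were chosen with earlier results of these data known. Chromosome numbers come from gene names shared with the RefSeq table. Python 3.11.15, pandas 2.3.3, SciPy 1.17.1 and matplotlib 3.10.9 were used.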

Additional observations from a re-analysis of the deposited data

How the results depend on the processing

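No paired analysis was possible because neither group has more than 1 library, and leaving out a replicate was likewise not possible. The count of 8 genes with 10 or more fragment equivalents was 5 with the annotated hairpin alone, a setting added after seeing the data, and between 6 and 12 with limits of 20 or 5 or with 150 bases per fragment. The count of 2 genes at least 2-fold lower was 0 with a pseudocount of 5, 0 in the deposited gene table, 1 after rescaling to a median of 0, 1 with a limit of 20 and 3 with no filter, which adds MIR319E. The deposited gene table lists MIR482 and MIR171A at lower values than the summed FPKM, so the same pseudocount weighs more, and its plain ratios were 0.362 for MIR482 and 0.348 for MIR171A. The count of 0 genes at least 2-fold higher was 1 with a limit of 5 and 1 with no filter, in both cases MIR398A. The median log2 ratio of -0.45 was -0.58 with a pseudocount of 0.1, -0.22 with a pseudocount of 5, -0.21 after rescaling, 0 with no filter, -0.14 in the deposited gene table, -0.80 for the hairpin alone and -0.58 without a pseudocount, the last 2 being added after seeing the data. By construction, a larger pseudocount moves a ratio towards 0, a smaller one moves it away, and the rescaling raises it. The no-filter value rests on the 111 genes at 0. The cause of the other shifts was not tested. Of 45 single log2 ratios recomputed, 42 stayed within the counting interval of their gene and 3 lay above it, all nearer to 0: MIR3631B at -0.24 with a pseudocount of 5 and -0.40 after rescaling, and MIR482 at -0.56 in the deposited gene table. Another sign was seen for 2, MIR403C and MIR3630 after rescaling, at 0.12 and 0.02. Staying within an interval says little where it is wide: MIR171A went from -1.23 to -0.16 in the deposited gene table and still counted as within. The intervals are also those of plain ratios, while most settings add a pseudocount. Depth limits the 8 genes too: the intervals of MIR171A, MIR3623 and MIR3630 are wide, and most of the others have too few fragments for a ratio. The width of these intervals also rests on fragment equivalents, which understate the fragments over hairpins.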
